A study of Mus musculus with 24 samples.

Results

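The comparison asked which genes of a subcutaneous fat depot differed between exercised and sham mice in the early rest phase. It set the 6 libraries labelled ZT3 and RUN_M against the 6 labelled ZT3 and SED_M, 12 of the 24 libraries of the series, and covered all 16233 genes of the deposited table with the labels kept as they stand. ZT counts hours from lights on, so ZT3 lies early in the resting time of a nocturnal mouse. All groups were male C57BL6 mice aged 10 to 11 weeks, with no allele named, whose inguinal white adipose tissue was profiled by RNA sequencing. RUN mice had a 1-hour bout on a treadmill, and SED mice spent the hour on an artificial treadmill as a sham. The remaining 12 libraries are the same 2 treatments at ZT15, early in the active phase. The labels place the sampling at ZT3 and give no interval between the bout and the sampling. A library is named here by group and a replicate number in record order, which pairs no animals. Whether a library stands for 1 mouse is not spelled out in the labels, and p-values here measure spread among libraries only.

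White adipocytes store triglyceride and release fatty acids when catecholamines, acting through beta-adrenergic receptors, switch on lipolysis. Running also raises corticosterone in rodents, and the glucocorticoid receptor then binds DNA and induces a well-known set of genes that includes Fkbp5, Tsc22d3, Per1 and Ddit4. In a nocturnal animal the daily low of corticosterone falls in the early rest phase, and adipose tissue has a clock of its own.

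No gene passed the threshold in exercised against sham mice at ZT3. With limma, 0 of 16233 genes (0%) had a Benjamini-Hochberg adjusted p under 0.05, and the smallest adjusted p was 0.989. The edgeR quasi-likelihood test and DESeq2, run on the whole reads recovered from the values, also called 0 genes. At an unadjusted limma p under 0.05 there were 368 genes (2.27%), of which 187 (1.15%) were higher and 181 (1.12%) lower in RUN. The differences leaned neither way: 8412 genes (51.8%) lay above 0 and 7821 (48.2%) below, and the median was 0.0061. Differences are given as log2(value + 1) of RUN minus SED ± SE, so those of low genes are understated, and the intervals printed are 95% intervals of single genes, not adjusted over genes. In the plot of p-values the lowest bin held fewer genes at ZT3 than an equal share over the bins would give.

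**Figure D1:**
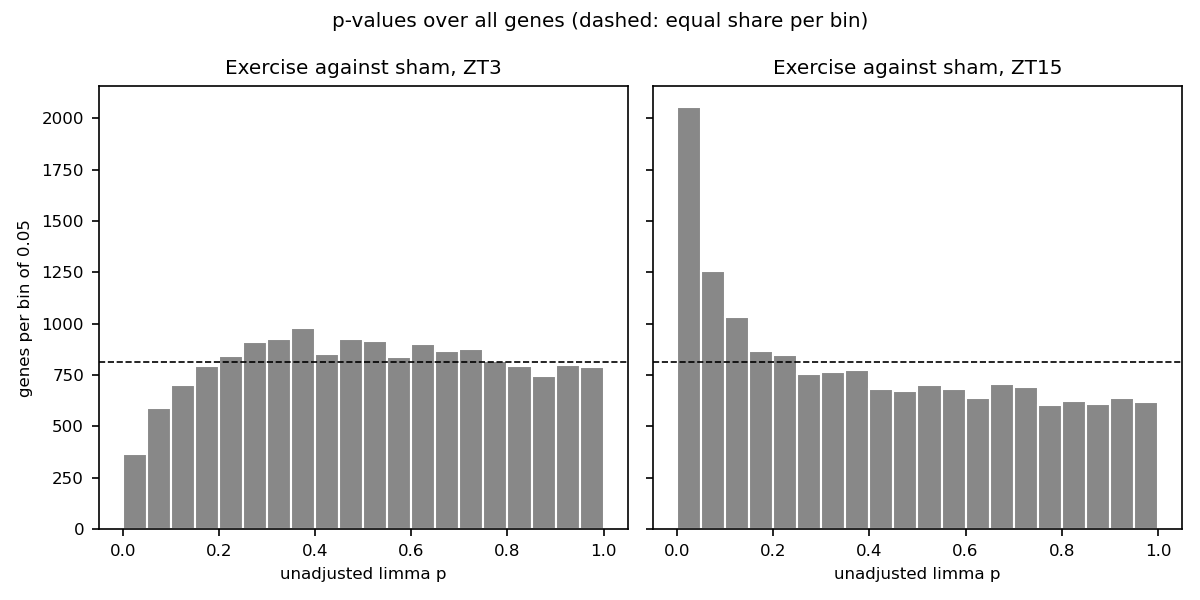
Number of genes (y axis) in each bin of width 0.05 of the unadjusted limma p (x axis) for exercise against sham at ZT3 (left) and at ZT15 (right); the dashed line marks an equal share per bin. The first bin holds 368 genes at ZT3 and 2055 at ZT15.

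The fit was precise enough to bound most genes. The median distance from a difference to either end of its interval was 0.268, and for 15095 genes (93.0%) the whole interval lay within 1 log2 unit of 0. It lay within 0.5 for 70.9% of genes, and for 77.6% of those above the median level. The RUN libraries spread more than the SED libraries: the median over genes of the SD between libraries was 0.260 in ZT3 RUN and 0.165 in ZT3 SED, against 0.193 in ZT15 RUN and 0.214 in ZT15 SED.

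Reads in the listed genes ranged from 23507841 to 34678732 over the ZT3 libraries. The adipocyte genes Adipoq, Plin1, Fabp4 and Cidec, for the hormone adiponectin, a lipid droplet coat protein, a fatty acid carrier and a lipid droplet fusion protein, were present throughout. The lowest library of the 12 had 1101 for Adipoq, 620 for Plin1, 4286 for Fabp4 and 766 for Cidec. All 4 lowest values were in ZT3_RUN_4. In that library the 22 measured lymphocyte markers summed to 3249, against 89.2 to 196 in the other RUN libraries and 115 to 143 in SED. The B cell gene Cd79a had a value of 99.2 there and between 0.334 and 0.833 in the other 11 ZT3 libraries. Skeletal muscle markers, 19 measured, summed to between 163 and 45175 in SED and between 1037 and 32003 in RUN, and these ranges overlapped. In bulk tissue, fewer cells of a type and less RNA per cell cannot be told apart.

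Principal components of the 12 libraries, over the 2000 most variable genes, had B cell and muscle genes at the ends of the first 2, and the groups overlapped on all 4 examined. The first component held 51.2% of the variance, with the B cell genes Ms4a1 and Ighd at one end and muscle genes such as Myh4 and Pvalb at the other. ZT3_RUN_4 scored 83.2 on it, and the other 11 libraries between -19.5 and 10.4. The second held 28.5%, with the muscle genes Ttn, Myh1 and Myh2 against Irs3, Lep and Fosb. The third held 6.05%, with Ucp1, Cidea and Egr1 at one end and Irf4, Ddit4, Cebpd and Depp1 at the other. Scores on the third overlapped between the groups, from -7.77 to 12.2 in SED and from -15.1 to 9.91 in RUN.

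**Figure D2:**
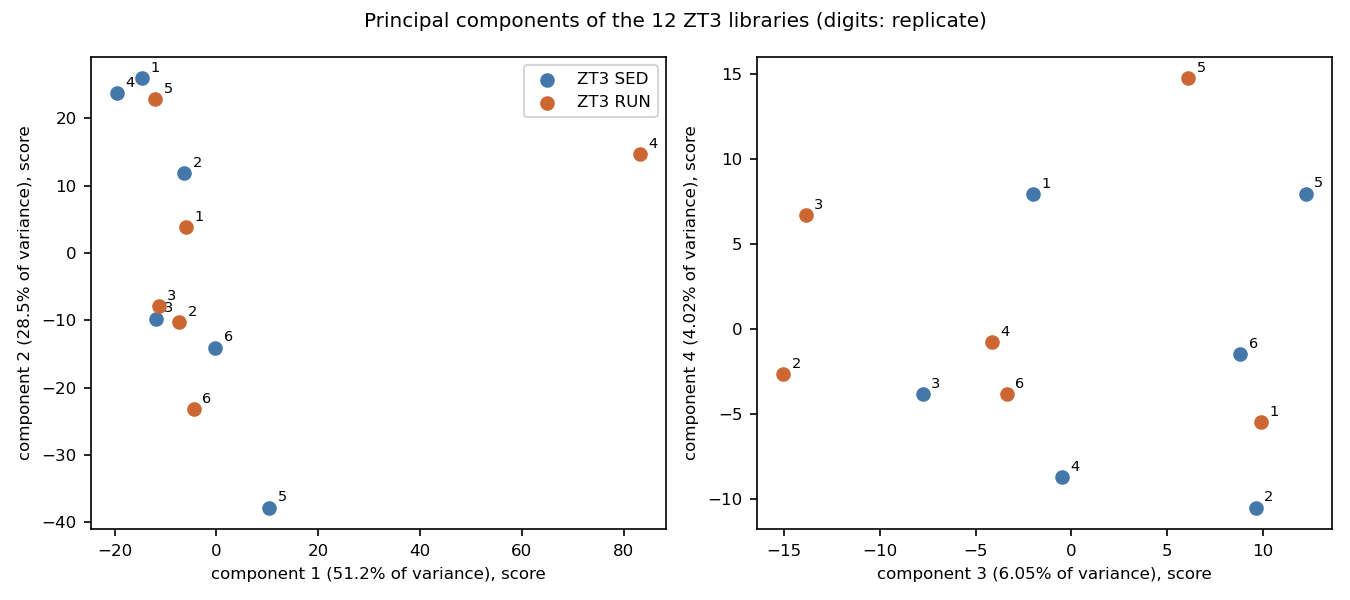
Scores of the 12 ZT3 libraries (blue SED, orange RUN, digits the replicate numbers) on principal components 1 and 2 (left) and 3 and 4 (right), with the share of variance on each axis. ZT3_RUN_4 stands alone at 83.2 on component 1, and the groups overlap on every component.

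Glucocorticoid-induced genes had the highest median of any list that was not a cell type marker list. Of 21 measured members 20 lay above 0, with a median difference of 0.41 against 0.0061 over all genes, and 19 lay above 0 after quantile normalization or after centring each library on its median. None of the 21 passed the threshold, and 6 had an unadjusted p under 0.05, all higher in RUN, where 1.15% of all genes were. They were Ddit4, Tsc22d3, Nfkbia, Fkbp5, Cdkn1a and Cebpb. The median deviation of the members from the 12-library mean lay between -0.67 and 0.66 over the RUN libraries and between -0.64 and 0.60 over the SED libraries. Among SED libraries only ZT3_SED_1, at 0.60, was above 0. Among RUN libraries ZT3_RUN_1, at -0.67, and ZT3_RUN_4, at -0.19, were below 0.

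Ddit4 (ENSMUSG00000020108), an inhibitor of the growth kinase complex mTORC1, had the largest positive difference of all genes. Its value was 9.70 at the lowest, 22.5 at the median and 71.6 at the highest of the 6 SED libraries, and 18.2, 71.8 and 113 in RUN. The highest SED library was ZT3_SED_1 and the lowest RUN library was ZT3_RUN_1, each of which lay among the other group. Above the SED mean were 5 of 6 RUN libraries. Here and below, the SED mean is taken over the values and not over their logs, unlike the differences. The difference was 1.39 ± 0.43, with an interval from 0.49 to 2.28.

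Tsc22d3 (ENSMUSG00000031431), which encodes the anti-inflammatory glucocorticoid-induced leucine zipper, had lowest, median and highest values of 129, 172 and 390 in SED and of 127, 342 and 395 in RUN. The 390 was in ZT3_SED_1 and the 127 in ZT3_RUN_1. Without these 2 libraries the highest SED value was 189 and the lowest RUN value 300. Leaving out the highest SED and the lowest RUN value moves the groups apart by construction, so this gap is no test. The difference over all 12 libraries was 0.69 ± 0.25. Fkbp5 (ENSMUSG00000024222), a co-chaperone that restrains the glucocorticoid receptor, had values of 56.3, 63.2 and 202 in SED and of 55.7, 141 and 238 in RUN. Here too ZT3_SED_1 was the highest SED and ZT3_RUN_1 the lowest RUN library. The difference was 0.70 ± 0.30.

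Per1, a repressor of the circadian clock that glucocorticoids also induce, was at 39.7, 53.4 and 163 in SED and at 43.8, 81.7 and 140 in RUN. Its highest value of all 12 was in ZT3_SED_1, and the difference of 0.50 ± 0.29 had an interval from -0.10 to 1.09. Nfkbia, the inhibitor of NF-kB, was at 43.4, 53.2 and 96.6 in SED and at 37.0, 101 and 131 in RUN. In 4 RUN libraries it was above the highest SED value, and ZT3_RUN_1 was below the lowest. The 131 was in ZT3_RUN_4, the library with the lymphocyte markers, and Nfkbia is also in the cytokine and NF-kB list. Its difference was 0.65 ± 0.27. Cdkn1a, the cell cycle inhibitor p21, differed by 0.66 ± 0.28, and Cebpb, an adipogenic transcription factor, by 0.52 ± 0.23. Cebpb had ZT3_RUN_4 as its lowest RUN library, at 20.4, and ZT3_RUN_1 at 30.7.

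Genes outside the list had the same outlying libraries. Depp1, a target of FOXO transcription factors, was at 16.4, 26.3 and 89.6 in SED and at 25.7, 79.3 and 108 in RUN, a difference of 1.00 ± 0.33. Mbd1, a methyl-CpG binding protein, was at 63.6, 75.3 and 186 in SED and at 71.5, 155 and 214 in RUN, a difference of 0.72 ± 0.25. Trp53inp1, a p53-induced regulator of autophagy, was at 56.9, 74.1 and 136 in SED and at 54.0, 144 and 193 in RUN, a difference of 0.67 ± 0.26. In each of these 3 genes ZT3_SED_1 was the highest SED library and ZT3_RUN_1 the lowest RUN library.

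**Figure D3:**
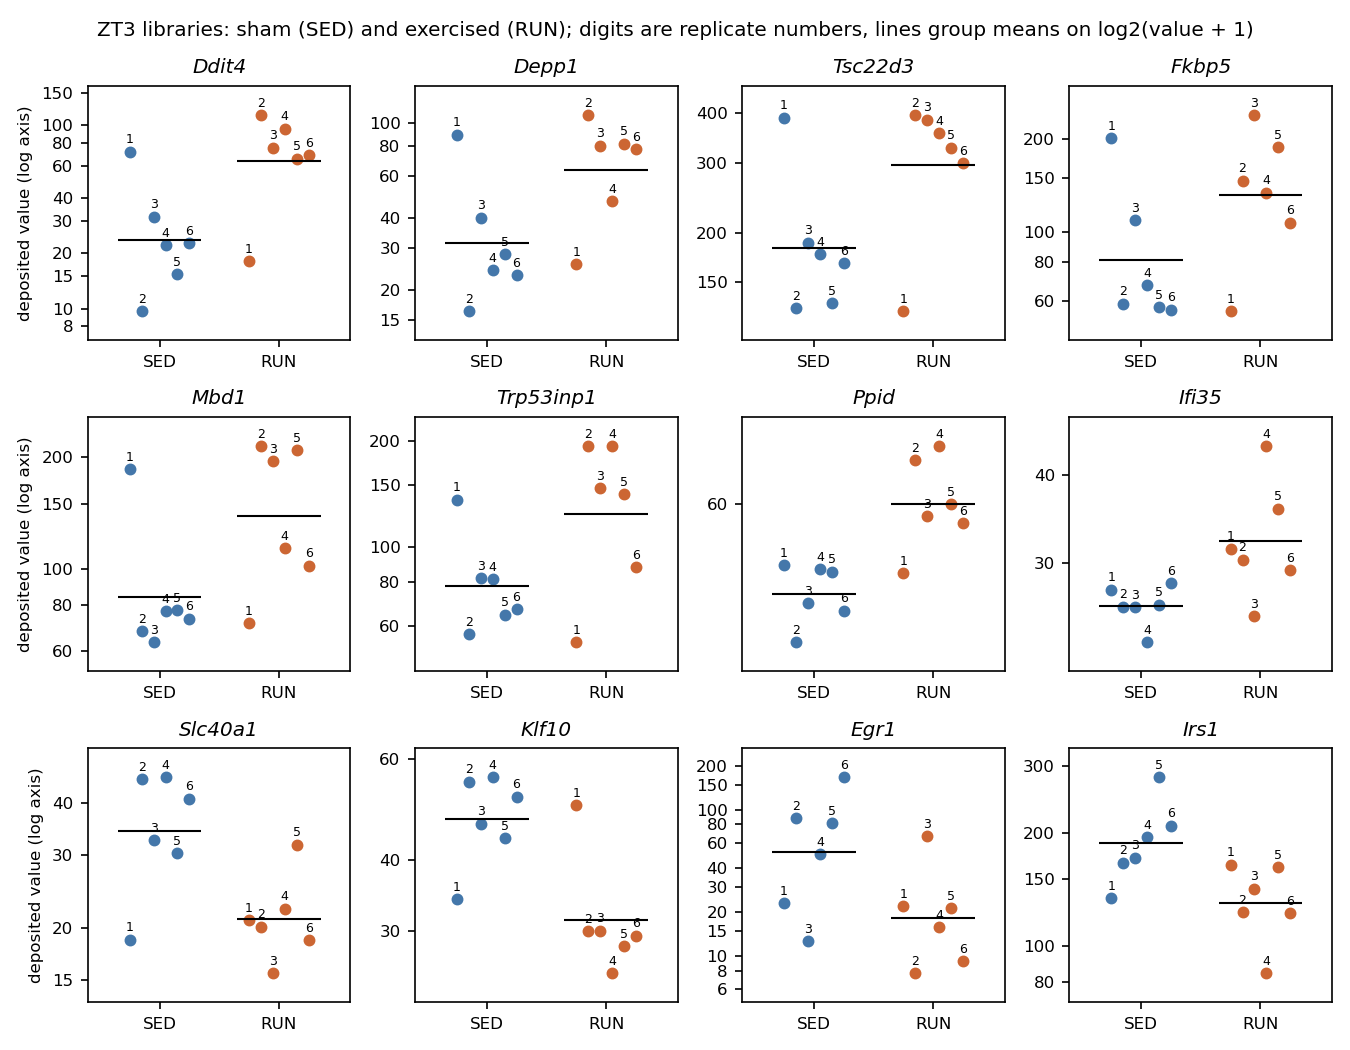
Deposited values (y axis, log scale, normalized signal) of 12 genes in the 6 SED (blue) and 6 RUN (orange) libraries at ZT3; digits are replicate numbers and lines are group means taken on log2(value + 1). In Ddit4, Depp1, Tsc22d3, Fkbp5, Mbd1 and Trp53inp1 the highest SED point is replicate 1 and the lowest RUN point is replicate 1.

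The same 2 libraries recurred across the genes with the smallest p. Of the 187 genes higher in RUN at an unadjusted p under 0.05, ZT3_SED_1 was the highest SED library in 87 and ZT3_RUN_1 the lowest RUN library in 83. Of the 181 lower genes, ZT3_SED_1 was the lowest SED library in 73 and ZT3_RUN_1 the highest RUN library in 65, while ZT3_RUN_3 was the highest in 62. These genes were picked on the same difference, so the counts are descriptions. How often each library was the highest or lowest of its group over all genes was not counted.

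The fit without ZT3_SED_1 and ZT3_RUN_1 is also a description, since the 2 libraries were picked from values in these data, and its counts are no test. It had 19 genes past the threshold of 0.05, among them Ddit4 at a difference of 2.05, Depp1 at 1.56, Fkbp5 at 1.20, Tsc22d3 at 1.15, Mbd1 at 1.14 and Trp53inp1 at 1.07. Leaving out only one of the 2 gave 0 genes past the threshold. Without both, 467 genes were higher and 387 lower at an unadjusted p under 0.05. The median of the glucocorticoid-induced list was then 0.63, with 20 of 21 above 0. What sets the 2 libraries apart was not tested.

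Promoter windows are shown for members of 3 lists whose pathways act through a known DNA motif, so that the letters stand beside the values. RefSeq windows of 300 bases around the annotated start, on GRCm38.p6, were found for 12259 genes of the table. The glucocorticoid response element, searched on both strands as GNACA and TGTNC with any 3 bases between them (N is any base), was in 61 (0.498%) of all windows and in 2 of the 18 windows of the glucocorticoid-induced list, Mt1 and Sgk1. The interferon-stimulated response element, GAAA and GAAA with any 2 bases between, was in 3.83% of all windows and in 11 of the 21 windows of the interferon-stimulated list. The heat shock element, GAA, TTC and GAA with any 2 bases between each, was in 0.636% of all windows and in 4 of the 18 of the heat shock list. A match is a description of letters, not a bound site, and the lists were drawn from knowledge of these pathways. The windows below belong to the 2 members of the glucocorticoid-induced list with a match, and to the members with the largest differences among those with a match in the other lists, with Chordc1 shown in place of Hsph1, whose start is annotated at 2 places. Members with larger differences and no match, such as Ddit4, are not shown. Capitals mark the match, or the run of overlapping matches, on either strand.
Mt1 (chr8:94178839-94179138, plus strand): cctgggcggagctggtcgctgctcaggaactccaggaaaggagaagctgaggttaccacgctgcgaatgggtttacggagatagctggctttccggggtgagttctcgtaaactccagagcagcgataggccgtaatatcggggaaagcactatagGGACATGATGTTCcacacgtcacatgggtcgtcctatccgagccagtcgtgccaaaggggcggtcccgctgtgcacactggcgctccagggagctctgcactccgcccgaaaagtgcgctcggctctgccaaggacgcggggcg
Sgk1 (chr10:21993640-21993939, plus strand): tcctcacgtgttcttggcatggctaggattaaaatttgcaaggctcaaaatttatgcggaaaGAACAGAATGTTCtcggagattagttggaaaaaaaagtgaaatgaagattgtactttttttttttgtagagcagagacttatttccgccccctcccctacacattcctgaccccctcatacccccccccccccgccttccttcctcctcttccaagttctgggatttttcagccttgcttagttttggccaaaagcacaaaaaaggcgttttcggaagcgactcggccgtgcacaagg
Isg15 (chr4:156200769-156201068, minus strand): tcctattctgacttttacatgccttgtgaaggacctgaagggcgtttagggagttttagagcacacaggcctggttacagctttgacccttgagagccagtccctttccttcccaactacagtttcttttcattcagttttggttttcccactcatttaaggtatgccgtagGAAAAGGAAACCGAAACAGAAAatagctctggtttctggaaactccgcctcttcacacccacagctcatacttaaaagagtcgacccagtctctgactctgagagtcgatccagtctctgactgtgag
Ifit1 (chr19:34640639-34640938, plus strand): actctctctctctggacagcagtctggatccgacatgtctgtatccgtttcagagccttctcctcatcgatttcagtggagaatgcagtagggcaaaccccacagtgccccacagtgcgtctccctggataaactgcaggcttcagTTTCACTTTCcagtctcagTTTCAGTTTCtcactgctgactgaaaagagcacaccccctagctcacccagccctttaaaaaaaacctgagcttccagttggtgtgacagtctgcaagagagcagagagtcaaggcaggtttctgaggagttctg
Chordc1 (chr9:18292017-18292316, plus strand): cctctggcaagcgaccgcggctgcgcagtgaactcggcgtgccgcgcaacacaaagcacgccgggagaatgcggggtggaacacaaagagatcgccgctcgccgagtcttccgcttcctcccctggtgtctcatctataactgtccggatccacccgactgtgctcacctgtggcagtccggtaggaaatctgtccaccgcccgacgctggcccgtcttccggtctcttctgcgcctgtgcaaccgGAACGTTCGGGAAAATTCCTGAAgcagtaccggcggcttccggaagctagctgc

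Mt1, a metallothionein that binds zinc and copper, was at 47.2, 61.9 and 142 in SED and at 47.0, 106 and 137 in RUN. Its window holds 1 glucocorticoid response element. The difference was 0.41 ± 0.32, and ZT3_SED_1 had the highest value of all 12 libraries. Sgk1, a serum and glucocorticoid regulated kinase, was at 59.4, 81.9 and 126 in SED and at 53.2, 103 and 135 in RUN, a difference of 0.19 ± 0.25. In both genes the groups overlapped.

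Interferon-stimulated genes were the list, beside the lymphocyte markers, in which every measured member lay above 0. All 26 did, between 0.05 and 0.43 with a median of 0.24, and 26 of 26 did so after quantile normalization or centring as well. Only Ifi35 had an unadjusted p under 0.05, and none passed the threshold. The median deviation of the list over the RUN libraries was 0.57 in ZT3_RUN_5, 0.54 in ZT3_RUN_4 and 0.34 in ZT3_RUN_1. It was 0.00 in ZT3_RUN_2, -0.28 in ZT3_RUN_6 and -0.43 in ZT3_RUN_3, and it ran from -0.45 to 0.04 in SED. With the libraries of a Cd79a value above 5 left out, which at ZT3 removes ZT3_RUN_4, 23 of 26 lay above 0 and the median was 0.12.

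Ifi35, an interferon-induced protein, was at 23.1, 26.0 and 28.0 in SED and at 25.1, 30.9 and 44.0 in RUN. In 5 RUN libraries it was above the highest SED value, and the difference was 0.29 ± 0.09. The RUN library with the most lymphocyte marker signal, ZT3_RUN_4, held the highest value. Isg15, a ubiquitin-like modifier whose window above carries 3 overlapping elements, was at 5.00, 7.07 and 8.61 in SED and at 4.34, 9.40 and 15.9 in RUN, a difference of 0.32 ± 0.21. Ifit1, which binds viral RNA and has 2 elements in its window, was at 21.8, 24.5 and 34.6 in SED and at 19.7, 35.9 and 45.2 in RUN, a difference of 0.30 ± 0.23. In both, 3 RUN libraries were above the highest SED value and 1 was below the lowest.

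Cytokine and NF-kB genes depended on ZT3_RUN_4. Of 23 measured members 17 lay above 0 with a median of 0.15, and without that library 8 did with a median of -0.03. Lymphocyte markers went from 22 of 22 above 0, with a median of 0.84, to 2 of 22, with a median of -0.08. Cxcl1, a neutrophil-attracting chemokine, was at 0.924, 2.33 and 9.20 in SED and at 0.816, 1.27 and 2.12 in RUN, a difference of -0.65 ± 0.30.

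Heat shock and chaperone genes had 20 of 25 members above 0 with a median of 0.12, and 25 of 25 with a median of 0.11 without ZT3_RUN_4. Only Ppid had an unadjusted p under 0.05. Ppid (ENSMUSG00000027804), the cyclophilin 40 co-chaperone of Hsp90, had the smallest p among the genes above the median level. It was at 45.8, 51.0 and 53.2 in SED and at 52.4, 59.3 and 67.2 in RUN. All 6 RUN libraries were above the SED mean, 5 were above the highest SED library, and the exception was ZT3_RUN_1. The highest value was in ZT3_RUN_4. The difference was 0.25 ± 0.07, with an interval from 0.11 to 0.39. Hsph1, a co-chaperone of Hsp70, was at 93.0, 101 and 186 in SED and at 90.7, 146 and 211 in RUN, a difference of 0.25 ± 0.24.

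Immediate early genes, which cells switch on within minutes of a stimulus and many of which encode transcription factors, were split. Of 32 measured members 17 lay above 0 with a median of 0.002, which was -0.02 after quantile normalization and -0.01 after centring. Of these, 3 had an unadjusted p under 0.05, all lower in RUN, where 1.12% of all genes were. The differences of the list ran from -1.44 to 1.01. Egr1 (ENSMUSG00000038418), a zinc finger factor, had the largest negative difference of all genes. It was at 12.7, 65.9 and 168 in SED and at 7.69, 18.6 and 66.6 in RUN. All 6 RUN libraries were below the SED mean of the values, which the 168 pulls up. The highest RUN value, 66.6, was above the SED median of 65.9. In 2 RUN libraries Egr1 was below the lowest SED library, and the difference was -1.44 ± 0.52.

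Egr3, a relative of Egr1, was at 1.78, 4.82 and 16.9 in SED and at 0.279, 1.72 and 8.30 in RUN, a difference of -1.13 ± 0.54. Its highest RUN value was in ZT3_RUN_4. Fos, a subunit of the AP-1 factor, was at 22.3, 47.3 and 156 in SED and at 17.2, 26.4 and 105 in RUN. Its difference was -0.81 ± 0.51 with an interval from -1.86 to 0.24. Klf10, a TGF-beta inducible repressor, was at 34.1, 48.9 and 55.7 in SED and at 25.3, 29.7 and 49.8 in RUN. In 5 RUN libraries it was below the lowest SED library, in the other, ZT3_RUN_1, it was at 49.8, and the difference was -0.57 ± 0.18. The lowest value of Klf10 was in ZT3_RUN_4.

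The nuclear receptors Nr4a3 and Nr4a1 had differences on the other side of 0. Nr4a3 was at 2.33, 6.35 and 35.2 in SED and at 3.68, 17.1 and 44.8 in RUN, a difference of 1.01 ± 0.56. Nr4a1 was at 5.89, 18.6 and 58.1 in SED and at 10.8, 28.9 and 47.3 in RUN, a difference of 0.30 ± 0.50. Their relative Nr4a2, named after its values were seen, was at 3.56, 3.88 and 10.4 in SED and at 3.74, 5.06 and 7.09 in RUN. For Nr4a2, 3 RUN libraries were above the SED mean and 3 below. Irf4, a transcription factor of lymphocytes that adipocytes also express, was at 33.2, 88.6 and 492 in SED and at 52.2, 276 and 788 in RUN. Its difference of 1.20 ± 0.68 had an interval from -0.21 to 2.61. For Nr4a3, Nr4a1 and Irf4 ZT3_SED_1 held the highest SED value and ZT3_RUN_1 the lowest RUN value. Irf4 was at 143 in ZT3_RUN_4, the library with the lymphocyte markers.

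Clock genes had 5 of 19 members above 0, with a median of -0.14. Nr1d1, the repressor REV-ERB alpha that peaks in the rest phase in many mouse tissues, was at 65.7, 85.9 and 95 in SED and at 36.6, 62.6 and 87.2 in RUN. In 4 RUN libraries it was below the lowest SED library, the lowest of them ZT3_RUN_4, and the difference was -0.45 ± 0.19. Arntl, the activator BMAL1, named after its values were seen, differed by -0.10 ± 0.20.

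Genes of lipid release showed no difference that the interval separated from 0. Of 22 lipolysis genes 4 lay above 0 with a median of -0.11, and without ZT3_RUN_4 11 did with a median of 0.01. Adrb3, the adipocyte beta-adrenergic receptor, was at 251, 347 and 525 in SED and at 156, 310 and 364 in RUN. All 6 RUN libraries were below the SED mean, ZT3_RUN_4 was the lowest, and the difference of -0.41 ± 0.22 had an interval from -0.87 to 0.05. Pnpla2, which encodes the triglyceride lipase ATGL, was at 1059, 1368 and 1692 in SED and at 726, 1274 and 1498 in RUN, with an interval from -0.59 to 0.23. Lipe, the hormone-sensitive lipase, had an interval from -0.47 to 0.25. For both lipases the lowest of all 12 libraries was ZT3_RUN_4.

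Several lists of lipid storage and burning also moved with that library. Fatty acid oxidation genes had 2 of 24 above 0 with a median of -0.08, and 18 of 24 with a median of 0.04 without ZT3_RUN_4. Respiratory chain genes had 4 of 38 above 0 with a median of -0.03, and 34 of 38 with a median of 0.08 without it. Fatty acid uptake and triglyceride synthesis genes had 5 of 19 with a median of -0.06, and 15 of 19 with a median of 0.09. Adipogenic regulators had 3 of 16 with a median of -0.09, and 10 of 16 with a median of 0.02. In each of these lists the side of 0 on which most members lay turned with 1 library.

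Pdk4, a kinase that blocks pyruvate oxidation and marks a switch to fat burning, was at 163, 309 and 439 in SED and at 209, 265 and 715 in RUN. The 715, in ZT3_RUN_5, stood apart from the other RUN libraries, of which the next was 286, and the difference was 0.06 ± 0.34. Lipogenesis genes had 13 of 19 above 0 with a median of 0.03. Without ZT3_RUN_4 they had 16 of 19 with a median of 0.21, and without ZT3_SED_1 and ZT3_RUN_1 they had 3 of 19 with a median of -0.07. Fasn, the fatty acid synthase, was at 9486, 19255 and 20775 in SED and at 10045, 18207 and 25391 in RUN. Its interval ran from -0.78 to 0.74, so the libraries bounded it only loosely. Cholesterol synthesis genes had 18 of 20 above 0 with a median of 0.09, 18 of 20 with a median of 0.19 without ZT3_RUN_4, and 11 of 20 with a median of 0.02 without ZT3_SED_1 and ZT3_RUN_1.

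Thermogenic genes, which mark the brown-like adipocytes that appear in this depot, had 6 of 21 above 0 with a median of -0.14, which was -0.08 without ZT3_RUN_4. Ucp1, the uncoupling protein that makes heat, was at 0.0342, 17.4 and 73.0 in SED and at 1.34, 17.4 and 27.1 in RUN. The groups had the same median to 3 digits, and the interval ran from -2.93 to 2.66. Ppargc1a, a coactivator of mitochondrial genes, was at 12.5, 20.0 and 31.4 in SED and at 14.4, 18.8 and 54.1 in RUN, a difference of 0.16 ± 0.49. Its highest value was in ZT3_RUN_5, the library that was also highest in Pdk4.

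Adipokines had 6 of 19 above 0 with a median of -0.03, and 17 of 19 with a median of 0.11 without ZT3_RUN_4. Lep, for the satiety hormone leptin, was at 133, 327 and 501 in SED and at 142, 292 and 801 in RUN, a difference of 0.04 ± 0.40. Adipoq was at 1983, 2401 and 3183 in SED and at 1101, 2346 and 2977 in RUN, a difference of -0.18 ± 0.22.

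Of the insulin signalling and glucose uptake genes 8 of 20 lay above 0 with a median of -0.06. Irs1, an adaptor that carries the signal from the insulin receptor, was at 134, 183 and 281 in SED and at 84.5, 132 and 164 in RUN. All 6 RUN libraries were below the SED mean, 3 of them below the lowest SED library, and the difference was -0.53 ± 0.20. Irs2, another such adaptor, was at 76.7, 91.2 and 170 in SED and at 72.9, 102 and 181 in RUN, a difference of 0.13 ± 0.28. The highest SED value of Irs2 was in ZT3_SED_1 and the lowest RUN value in ZT3_RUN_1.

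Iron genes had 4 of 17 above 0 with a median of -0.12. Slc40a1 (ENSMUSG00000025993), the iron exporter ferroportin, had the smallest p of the lower genes above the median level. It was at 18.7, 36.7 and 46.1 in SED and at 15.6, 20.5 and 31.7 in RUN. The lowest SED value was in ZT3_SED_1, all 6 RUN libraries were below the SED mean, and the difference was -0.67 ± 0.19 with an interval from -1.06 to -0.29. Macrophages also express this exporter, and the 18 macrophage and dendritic markers, of which none was at 0 in all libraries of a group, summed to between 1577 and 2927 in SED and between 1970 and 3254 in RUN. Their part in the result was not tested.

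Collagen and matrix genes had 6 of 35 above 0 with a median of -0.19, and 11 of 35 with a median of -0.05 without ZT3_RUN_4. Bgn, the matrix proteoglycan biglycan, was at 105, 122 and 162 in SED and at 85.6, 107 and 114 in RUN, a difference of -0.31 ± 0.15. Palld, an actin bundling protein, was at 54.9, 64.6 and 83.1 in SED and at 36.2, 49.5 and 62.6 in RUN. In 4 RUN libraries it was below the lowest SED library, and the difference was -0.44 ± 0.15. Tram2, which takes part in collagen synthesis at the endoplasmic reticulum, was at 19.6, 24.2 and 30.2 in SED and at 14.1, 18.1 and 24.2 in RUN, a difference of -0.41 ± 0.15. Lrig1, a negative regulator of growth factor receptors, differed by -0.35 ± 0.13, and Acvr2a, an activin receptor, by -0.29 ± 0.10. ZT3_RUN_4 was the lowest of the 12 libraries in Palld, Lrig1 and Acvr2a.

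Of the mTORC1 brakes and growth arrest genes 10 of 18 lay above 0 with a median of 0.13, and without ZT3_RUN_4 9 did with a median of 0.0014. At an unadjusted limma p under 0.05, 3 of the 18 were higher and 1 lower in RUN, where 1.15% and 1.12% of all genes were. The 3 with the smallest p were Ddit4, Trp53inp1 and Cdkn1a, given above and all higher. Autophagy genes had 2 of 17 above 0 with a median of -0.06, and glycolysis genes 11 of 26 with a median of -0.06. Unfolded protein and integrated stress genes had 13 of 23 above 0 with a median of 0.03, and 17 with a median of 0.08 without ZT3_RUN_4. In that list Ppp1r15a, which ends the block of translation under stress, was at 7.84, 11.0 and 14.2 in SED and at 9.64, 16.8 and 20.6 in RUN. In 4 RUN libraries it was above the highest SED value, and the difference was 0.39 ± 0.18. Hypoxia and angiogenic genes had 11 of 20 above 0 with a median of 0.04, and 16 with a median of 0.09 without ZT3_RUN_4. Wnt and TGF-beta genes had 12 of 27 with a median of -0.09, and 12 with a median of -0.005 without that library. Lrp6, a Wnt co-receptor, differed by -0.24 ± 0.11.

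**Figure D4:**
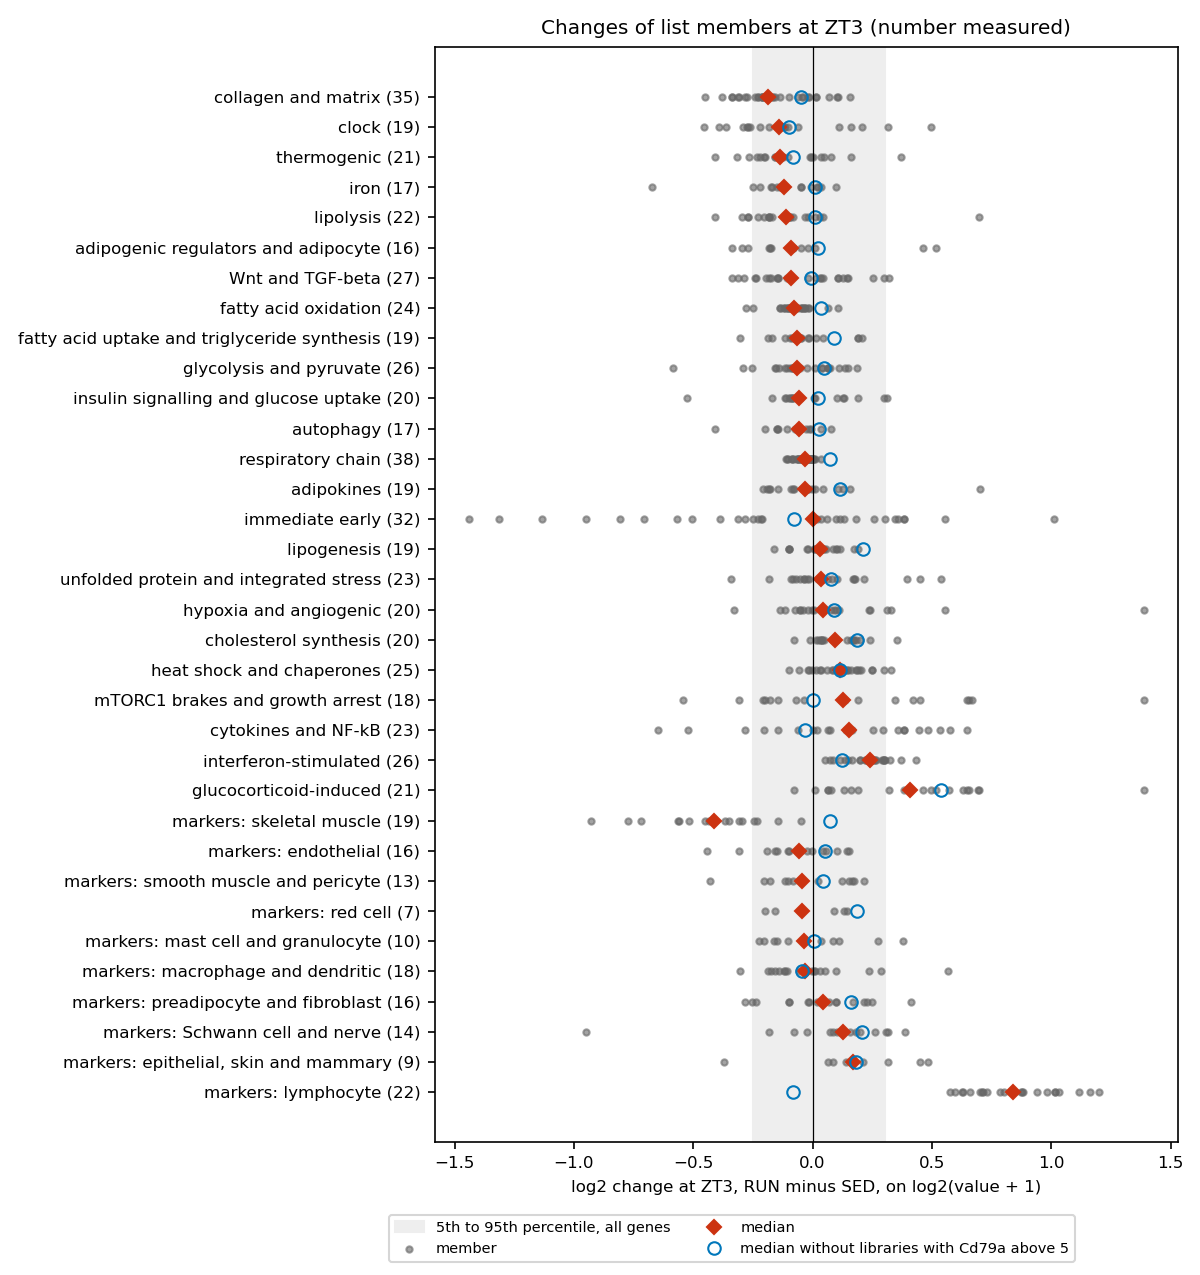
Log2 difference of RUN minus SED at ZT3 (x axis) for the measured members (grey points) of each gene list, the median (red diamond) and the median without the libraries of a Cd79a value above 5 (blue circle); the band spans the 5th to 95th percentile of all genes. The medians of the lymphocyte and muscle markers move the most between both fits, from 0.84 to -0.08 and from -0.41 to 0.07.

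Some marker lists of other cells moved with ZT3_RUN_4. Skeletal muscle markers had 0 of 19 above 0 with a median of -0.41, and 12 of 19 with a median of 0.07 without ZT3_RUN_4. Endothelial markers had 5 of 16 above 0, smooth muscle and pericyte markers 6 of 13, preadipocyte and fibroblast markers 9 of 16, and Schwann cell and nerve markers 10 of 14. Without ZT3_RUN_4 the median of the preadipocyte and fibroblast markers went from 0.04 to 0.16 and that of the Schwann cell and nerve markers from 0.13 to 0.21. Macrophage and dendritic markers had 8 of 18 above 0, mast cell and granulocyte markers 5 of 10, red cell markers 3 of 7, and epithelial, skin and mammary markers 8 of 9. The macrophage and dendritic list and the epithelial list kept these counts, 8 of 18 and 8 of 9, without ZT3_RUN_4. No marker list had a member past the threshold.

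**Figure D5:**
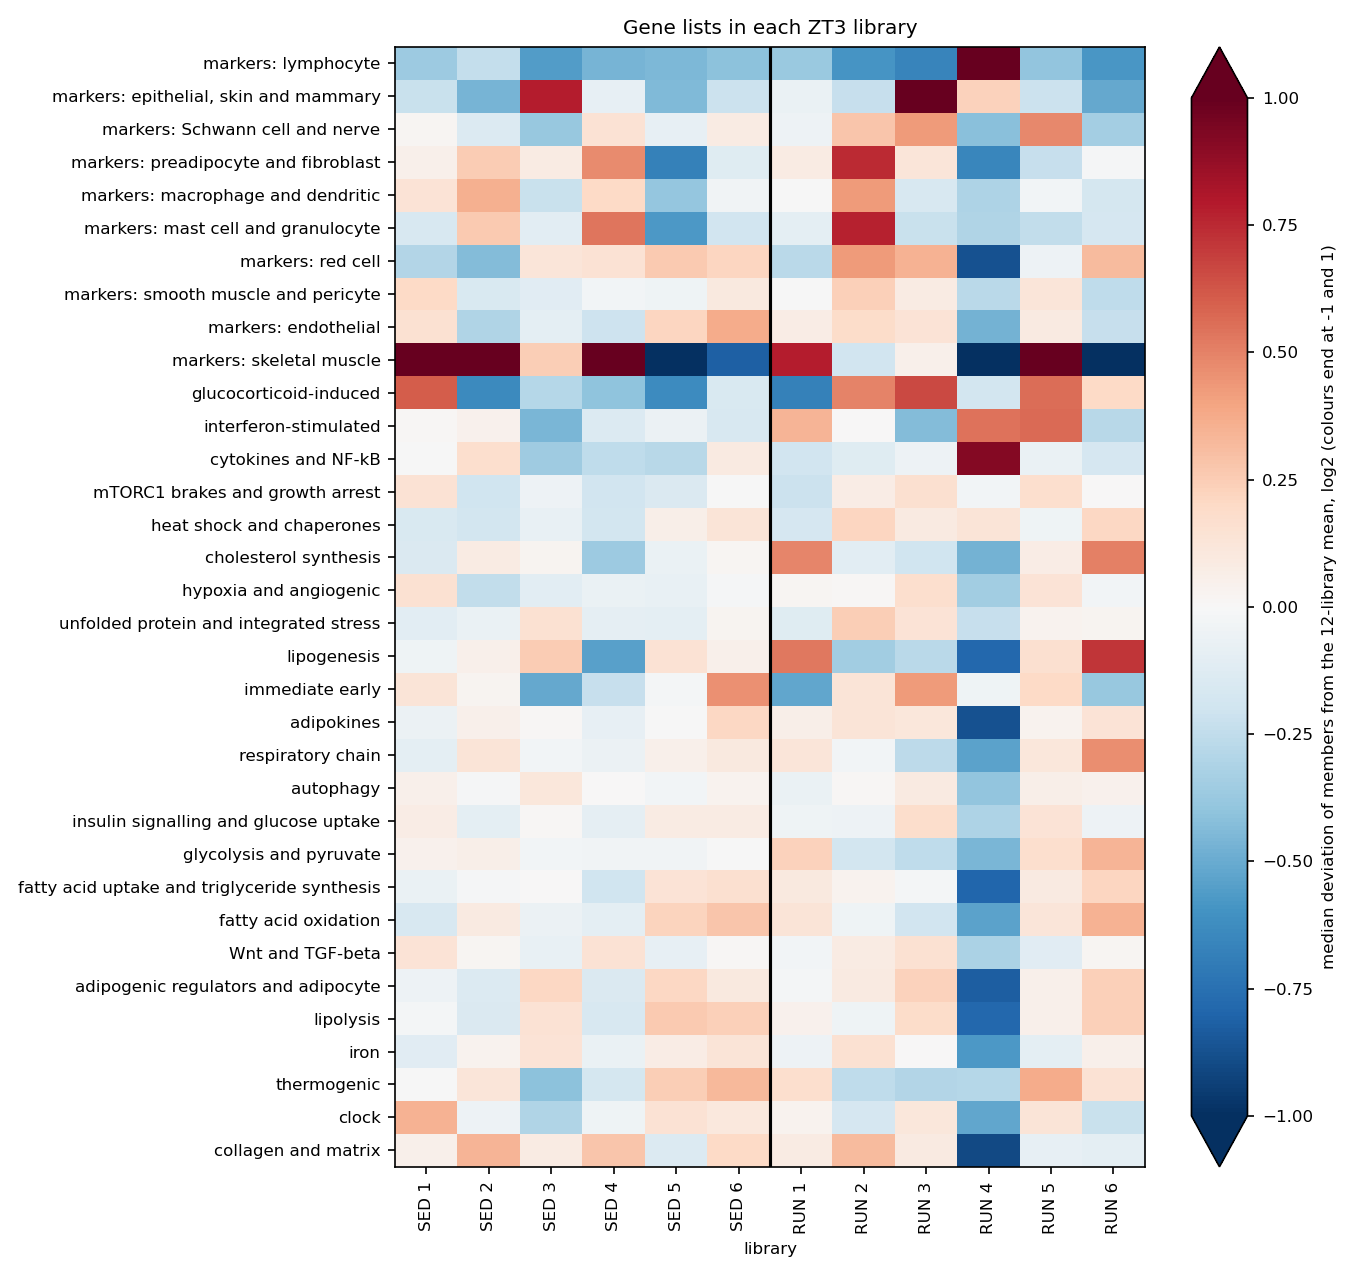
Median deviation of each list's members from the mean of the 12 ZT3 libraries (colour, log2, ending at -1 and 1) in each library (columns, SED left and RUN right of the black line). ZT3_RUN_4 is low in the fat metabolism and matrix lists, and the glucocorticoid-induced list is above 0 in ZT3_SED_1 (0.60) and below 0 in ZT3_RUN_1 (-0.67).

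Small differences made up the rest of the genes with the smallest p. Med4, a subunit of the Mediator complex, was at 13.1, 13.9 and 16.1 in SED and at 15.3, 16.1 and 18.6 in RUN, a difference of 0.20 ± 0.07. Ik, a spliceosome factor, was at 80.4, 85.5 and 88.3 in SED and at 87.7, 93.6 and 97.0 in RUN, a difference of 0.13 ± 0.04. Tpst2, a tyrosine sulfation enzyme, was at 22.2, 25.1 and 31.3 in SED and at 26.4, 29.6 and 34.5 in RUN, a difference of 0.25 ± 0.09. In Med4, Ik and Tpst2 all 6 RUN libraries were above the SED mean. ZT3_RUN_4 was the highest of the 12 libraries in Med4 and Tpst2, and ZT3_RUN_2 in Ik. Pole4, a subunit of DNA polymerase epsilon, differed by 0.28 ± 0.09. On the lower side Bace1, the beta-secretase, differed by -0.23 ± 0.08, Zmat3, a p53 target, by -0.32 ± 0.11, and Bivm by -0.25 ± 0.09. All 6 RUN libraries of each were below the SED mean. ZT3_RUN_4 was the lowest of the 12 libraries in Bace1 and Bivm, and ZT3_RUN_2 in Zmat3.

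Only 12 genes (0.0739%) had groups that did not overlap, 8 (0.0493%) with RUN higher and 4 (0.0246%) with RUN lower. They are named for that reason, after their values were seen. On the higher side were Rabggtb, which attaches lipid anchors to Rab proteins, Pop4, a subunit of RNase P, Faf2, of protein degradation at the endoplasmic reticulum, the neuritin gene Nrn1, Slc24a5, Smc1b, Gm20302 and Gm22334. Rabggtb was at 36.1, 39.3 and 41.3 in SED and at 41.6, 43.2 and 47.2 in RUN, and Pop4 at 12.5, 14.0 and 14.6 and at 14.9, 15.4 and 18.8. Nrn1 was at 1.54, 2.41 and 3.2 in SED and at 3.33, 3.87 and 4.79 in RUN, a difference of 0.54 ± 0.19. On the lower side were Atp13a3, a polyamine transporter, Ier5l, Capn6 and Gm10037. Atp13a3 was at 202, 212 and 234 in SED and at 181, 198 and 201 in RUN, a difference of -0.13 ± 0.06. Without ZT3_SED_1 and ZT3_RUN_1 the counts were 127 and 72 of 16233 genes. Those 2 libraries were picked from values in these data, and smaller groups separate more readily by themselves. The rise is thus a description and no result.

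At ZT15 the same comparison had 104 genes past the threshold (0.641%) by limma, 78 higher (0.481%) and 26 lower (0.16%), and 2055 genes (12.7%) at an unadjusted p under 0.05. For 102 of the 104 the ZT3 interval did not include the ZT15 difference. That count takes no account of the error of the ZT15 difference. At ZT3, 86 of the 104 had the same sign and 6 had an unadjusted limma p under 0.05, which 2.27% of all genes had. The shares of all genes with like signs or with such an interval were not counted. The differences at the 2 times had a Pearson r of -0.30 over all genes. The 104 were picked on their ZT15 values, so these counts are descriptions. The test of the difference between the times called 0 genes (0%) with limma, while 1273 (7.84%) had an unadjusted p under 0.05, and its smallest adjusted p was 0.583. Genes that passed at ZT15 and not at ZT3 were not shown to differ between the times.

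Some named genes had like values at both times and others did not. Ddit4 differed by 1.39 ± 0.43 at ZT3 and 1.37 ± 0.43 at ZT15, Depp1 by 1.00 ± 0.33 and 0.91 ± 0.33, Mbd1 by 0.72 ± 0.25 and 0.73 ± 0.25, and Ppid by 0.25 ± 0.07 and 0.22 ± 0.07. The interval of the difference between the times ran from -1.28 to 1.25 for Ddit4 and from -0.22 to 0.16 for Ppid. Egr1 was at -1.44 ± 0.52 and 0.75 ± 0.52, Nr4a1 at 0.30 ± 0.50 and 2.48 ± 0.50, and Irs2 at 0.13 ± 0.28 and 1.53 ± 0.28. For the last 3 the interval of the difference between the times lay above 0, from 0.67 to 3.72, from 0.71 to 3.65 and from 0.57 to 2.22, and limma's adjusted p was 0.583 for each. Among lists, the interferon-stimulated one had 26 of 26 above 0 at ZT3 and 3 of 26 at ZT15, and the collagen and matrix one 6 of 35 and 33 of 35. The libraries with a Cd79a value above 5 lie in RUN at ZT3 and in SED at ZT15. Without them the ZT3 counts were 23 of 26 and 11 of 35, and their part in the change of side was not tested. The glucocorticoid-induced list had 20 of 21 and 21 of 21, with medians of 0.41 and 0.77. Differences between lists were not tested.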

How the data were processed

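RNA sequencing of total RNA, with a stranded kit after ribosomal RNA removal per the labels' protocols, gave 24 libraries, 6 per group. Per the submitters' processing notes, which assign no role or order, the tools were STAR, Subread 1.6.2, featureCounts and limma 3.48.3. Genome build, annotation, strand setting and low-gene filter were not given in the sources used here, so antisense, overlapping or near-identical genes may share reads. The deposited table holds a normalized signal made by the authors, and 100% of its values were whole multiples of 1 read per library, within 0.01 of a read. The steps equalled TMM scaling recomputed with edgeR 4.0.16 to within 1.554e-15, so the signal is TMM-scaled CPM and not raw counts. No 2 ZT3 libraries of a group were duplicates: over 30 pairs chi-square per degree of freedom was 34.9 or above.

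Values were tested as log2(value + 1) with limma 3.58.1 in R 4.3.3 (lmFit, eBayes with trend) in a group-means model over 24 libraries. P-values were adjusted by Benjamini-Hochberg across 16233 genes, at a threshold of 0.05. The fits were tested on simulated counts with the same spread setting for all genes and no outlying libraries. That simulation does not show what the real libraries could detect. The alternatives were other normalizations, filters, pseudocounts, variance models, library weights, blocks of title numbers, edgeR and DESeq2 1.42.0 on the recovered reads, and left-out libraries. Named genes were the 10 of smallest p on each side above the median level, up to 3 per list at an unadjusted p under 0.05 or else the 2 of highest level, the 2 highest markers per marker list, and a fixed set. Sparc and most of the highest markers that this rule picks are covered only by the counts of their lists, and one gene is not reported here. Any others are named by a motif match, a lack of overlap or as stated. The comparison, the lists and the 2 libraries left out together were chosen with earlier results of these data known, so lists are described by counts and medians and not tested.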

Additional observations from a re-analysis of the deposited data

Results flagged for a closer look

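Single libraries stood apart in the groups of 6 given here, each by a gap to its nearest neighbour above the 95% critical value of Dixon's test for 6 samples. Chance gives about 1 in 20 groups such a gap, and the named genes are not independent of each other.

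ZT3_SED_1 was the high library of the SED group in Mbd1 at 186 (next 77.6), Tsc22d3 at 390 (next 189), Nfkbia at 96.6 (next 57.7) and Per1 at 163 (next 64.8). ZT3_RUN_1 was the low library of the RUN group in Ddit4 at 18.2 (next 65.4) and Tsc22d3 at 127 (next 300), and the high one in Klf10 at 49.8 (next 30.0). In all of these each library lay within or beyond the range of the other group. What sets them apart was not tested.

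ZT3_RUN_4 was low among RUN libraries in the fat cell genes Plin4 at 1167, Lpl at 3346, Adipoq at 1101 and Lipe at 660. It was also low in Ebf2 at 25.4, Sqstm1 at 173, Lrig1 at 67.2, the Schwann cell gene Pmp22 at 79.8 and the red cell gene Alas2 at 9.58. It was high in the B cell gene Cr2 at 218, where the next RUN library was at 4.63.

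ZT3_RUN_5 was high in Pdk4 at 715 and in Ppargc1a at 54.1. ZT3_RUN_2 was low in Bgn at 85.6 and high in the mast cell gene Cpa3 at 50.1. ZT3_SED_4 was low in Fasn at 9486.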

How the results depend on the processing

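No gene passed the threshold under any alternative run over all genes, in limma, edgeR or DESeq2, nor with any 1 of the 12 ZT3 libraries left out or at an adjusted p under 0.1, except without ZT3_SED_1 and ZT3_RUN_1 together, which gave 19. The counts at an unadjusted p under 0.05, 187 higher and 181 lower, were less steady. The higher count was 124 in the 12 ZT3 libraries alone, 531 with edgeR, 648 with DESeq2 and 467 without ZT3_SED_1 and ZT3_RUN_1, where the lower count was 387. Leaving out 1 library gave 132 to 378 higher and 83 to 315 lower. The ends were ZT3_RUN_1 for 378, ZT3_SED_5 for 83 and ZT3_RUN_3 for 315, and without ZT3_SED_1 the higher count was 294. The 8 and 4 genes without overlap, of 16233, became 127 and 72 without ZT3_SED_1 and ZT3_RUN_1. Leaving out libraries picked from these data and making the groups smaller both raise such counts. The causes were not tested.

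With a replicate block of neighbouring title numbers, 0 genes passed, and 190 were higher and 176 lower at an unadjusted p under 0.05. The labels do not say that the numbers pair animals. The correlations of the 6 pairs ran from -0.443 to 0.277, with 1 of 6 pairs a best match. Such correlations cannot settle whether neighbouring numbers share anything beyond the number.

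Named genes with differences near 0 could cross it. Crossing values were Fabp4 0.14, Plin4 0.082, Fasn 0.13, Lpl 0.013, Atp5a1 0.10, Cfd 0.053, Aldoa 0.033, Ldha 0.090, Sqstm1 0.034, Bnip3 0.12, Insig1 0.081, Adipoq 0.016 and Lipe 0.062 without the libraries of a Cd79a value above 5. They were Fabp4 0.082, Plin4 0.068, Fasn 0.091, Atp5a1 0.052, Cfd 0.060, Ldha 0.038, Sqstm1 0.011, Bnip3 0.14, Insig1 0.016 and Lipe 0.054 with library weights, and Fabp4 0.25, Fasn 0.024, Lpl 0.017, Atp5a1 0.13, Cfd 0.020, Insig1 0.027 and Lipe 0.021 after quantile normalization. Scd1 was at 0 there, being the top value of every library. They were Fabp4 0.025, Fasn 0.027, Atp5a1 0.027 and Insig1 0.13 with edgeR, Fabp4 0.029, Fasn 0.030, Atp5a1 0.030 and Insig1 0.13 with DESeq2, Atp5b -0.013 after centring, Ucp1 0.25 with a pseudocount of 0.1, and Atp5b -0.047, Hmgcs1 -0.23 and Lep -0.16 without ZT3_SED_1 and ZT3_RUN_1. With 1 library left out, the ranges that crossed 0 were Fabp4 -0.13 to 0.14, Plin4 -0.15 to 0.082, Fasn -0.19 to 0.13, Lpl -0.24 to 0.013, Pdk4 -0.19 to 0.19, Atp5b -0.10 to 0.11, Atp5a1 -0.090 to 0.10, Cidea -0.51 to 0.15, Cfd -0.34 to 0.053, Aldoa -0.29 to 0.033, Ldha -0.17 to 0.090, Sqstm1 -0.10 to 0.034, Bnip3 -0.16 to 0.12, Insig1 -0.21 to 0.17, Hmgcs1 -0.12 to 0.20, Nr4a1 -0.026 to 0.59, Ppargc1a -0.10 to 0.30, Ucp1 -0.85 to 0.39, Adipoq -0.27 to 0.016, Lep -0.23 to 0.27, Lipe -0.17 to 0.062 and Irs2 -0.013 to 0.29. Beside the lists given above, medians that changed side without ZT3_RUN_4 were those of iron at 0.01, insulin signalling at 0.02, autophagy at 0.03, glycolysis at 0.05, immediate early genes at -0.08, and the red cell, endothelial, smooth muscle and mast cell markers at 0.19, 0.05, 0.04 and 0.01. Without ZT3_SED_1 and ZT3_RUN_1, those of lipogenesis, at -0.07, and smooth muscle, at 0.03, did. Scaling of the lists by quantiles or by centring was added after seeing the data, and it turned only the immediate early median and that of all genes, to -0.01 each by centring. The spread between 6 libraries per group sets the width of the intervals.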

Other observations

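The muscle and mast cell signals of the ZT3 libraries spread widely, and their ranges overlapped between the treatments. The summed muscle markers had a median of 11398 in SED and 5532 in RUN. Myh4, a fast myosin of skeletal muscle, was at 15.8 at the lowest, 1958 at the median and 8207 at the highest of the SED libraries and at 134, 1189 and 5208 in RUN. ZT3_SED_5 was the lowest of all in the summed muscle markers at 163, and ZT3_SED_1 the highest at 45175. Mast cell and granulocyte markers, 10 measured, summed to between 47.2 and 145 in SED and between 52.2 and 162 in RUN.

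Across all 16233 genes the differences at ZT3 and at ZT15, which share no library, had a Pearson r of -0.30 and a Spearman rho of -0.26. This is a correlation across genes, which are not independent replicates, and the libraries with a Cd79a value above 5 lie in RUN at ZT3 and in SED at ZT15.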
